A study of Caenorhabditis elegans with 12 samples.

Results

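The hedgehog-related and patched-related genes of Caenorhabditis elegans were taken from a table of read counts for whole worms. A gene was a member if its name in the Ensembl annotation of the WBcel235 build was made of wrt, grd, grl, hog, qua, ptr or ptc and a number. Of the 46926 genes in the table, 85 matched: 10 warthog (wrt), 16 groundhog (grd), 31 ground-like (grl), 1 hog, 1 quahog (qua), 2 patched (ptc) and 24 patched-related (ptr) genes. At least 10 counts in at least 4 libraries were required, and 79 genes met this. The 6 genes below that level were grd-8, grl-11, grl-19, grl-24, grl-29 and grl-31. The names carried no information on expression, so the levels described here were not used in choosing the members beyond that minimum.

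Poly-A RNA had been sequenced from whole bodies of 3 strains, with 4 libraries each, all grown at 20 °C from eggs purified with hypochlorite and labelled as larval stage 4. The groups were wildtype N2 (wild type), Psnb-1::TDP-43; Pmyo-2::dsRED (TDP-43) and Psnb-1::TDP-43(K82A/R83A/K84A) together with Pmyo-3::dsRED (TDP-43ΔNLS). TDP-43 is an RNA-binding protein of the nucleus, and in the last strain 3 residues of its nuclear localization signal were replaced by alanine. The snb-1 promoter drives expression in neurons, and the dsRED markers are driven in the pharynx (myo-2) or in the body wall muscle (myo-3). It is not stated whether each library stands for a culture of its own. The p-values below therefore set strain differences only against the spread among these libraries.

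In flies and vertebrates, Hedgehog is a secreted signal that binds Patched, a membrane protein with a sterol-sensing domain, and thereby releases Smoothened to act on transcription factors of the Gli family. The worm has no clear Hedgehog or Smoothened. It has instead large families of secreted proteins that share parts with Hedgehog (warthog, groundhog, ground-like, hog and quahog), and an enlarged set of Patched-like membrane proteins. Many of these genes are known from epidermis, glia and tube-forming cells and from the making and shedding of the cuticle, the collagen-rich coat that is renewed at each larval molt.

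Total counts ranged from 20671982 to 26910097 per library, and levels are given as CPM, a gene's counts scaled to a library of fixed size. The libraries fell apart in stage-dependent transcripts. In 4 of them (wild type 4, TDP-43 4, TDP-43ΔNLS 3 and TDP-43ΔNLS 4) a list of 24 oocyte and eggshell genes had a mean of 1.96 to 3.94 log2 CPM, against 8.06 to 9.32 in the other 8. The vitellogenin gene vit-2, which codes for yolk, had 3.16 to 83.4 CPM in those 4 libraries, whereas the other 8 had 1550 to 3980 CPM. For col-19, a collagen gene of the adult cuticle, the corresponding ranges were 1.24 to 481 CPM and 1570 to 3310 CPM. The 4 libraries are called larva-like and the 8 adult-like from here on. These sets were defined from expression, and not from the labels, so values for them are given as a description with no test. In whole worms, fewer cells of a type and less RNA per cell cannot be told apart.

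Together the 79 genes made up 4830 to 6310 CPM in the larva-like libraries and 1650 to 3800 CPM in the adult-like ones. Their share of all counts ran from 0.153% in wild type 3 to 0.590% in TDP-43 4. Sets whose ranges did not overlap were counted; 46.9% of the 16637 genes tested had such ranges, in either direction. In 41 of 79 members (51.9%) the larva-like libraries were all higher, compared with 22.3% of the genes tested. In 3 members (3.8%) they were all lower, compared with 24.6% of the genes tested. The other 35 members overlapped. When each library was scaled to a list of epidermis and seam genes instead, a setting added after the data were seen, 20 members were higher and 8 lower, against 2.43% and 47.4% of all genes. With no minimum on counts, when all 85 genes were read, the numbers were again 41 and 3, so none of the 6 low genes was divided by library set. A gene counted only in the 4 larva-like libraries would pass the minimum through them alone, so these counts describe the genes kept and support nothing further. The median log2 ratio of the larva-like to the adult-like median, with 0.5 CPM added to both, was 1.54 over the members and 0.15 over all genes tested.

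**Figure D1:**
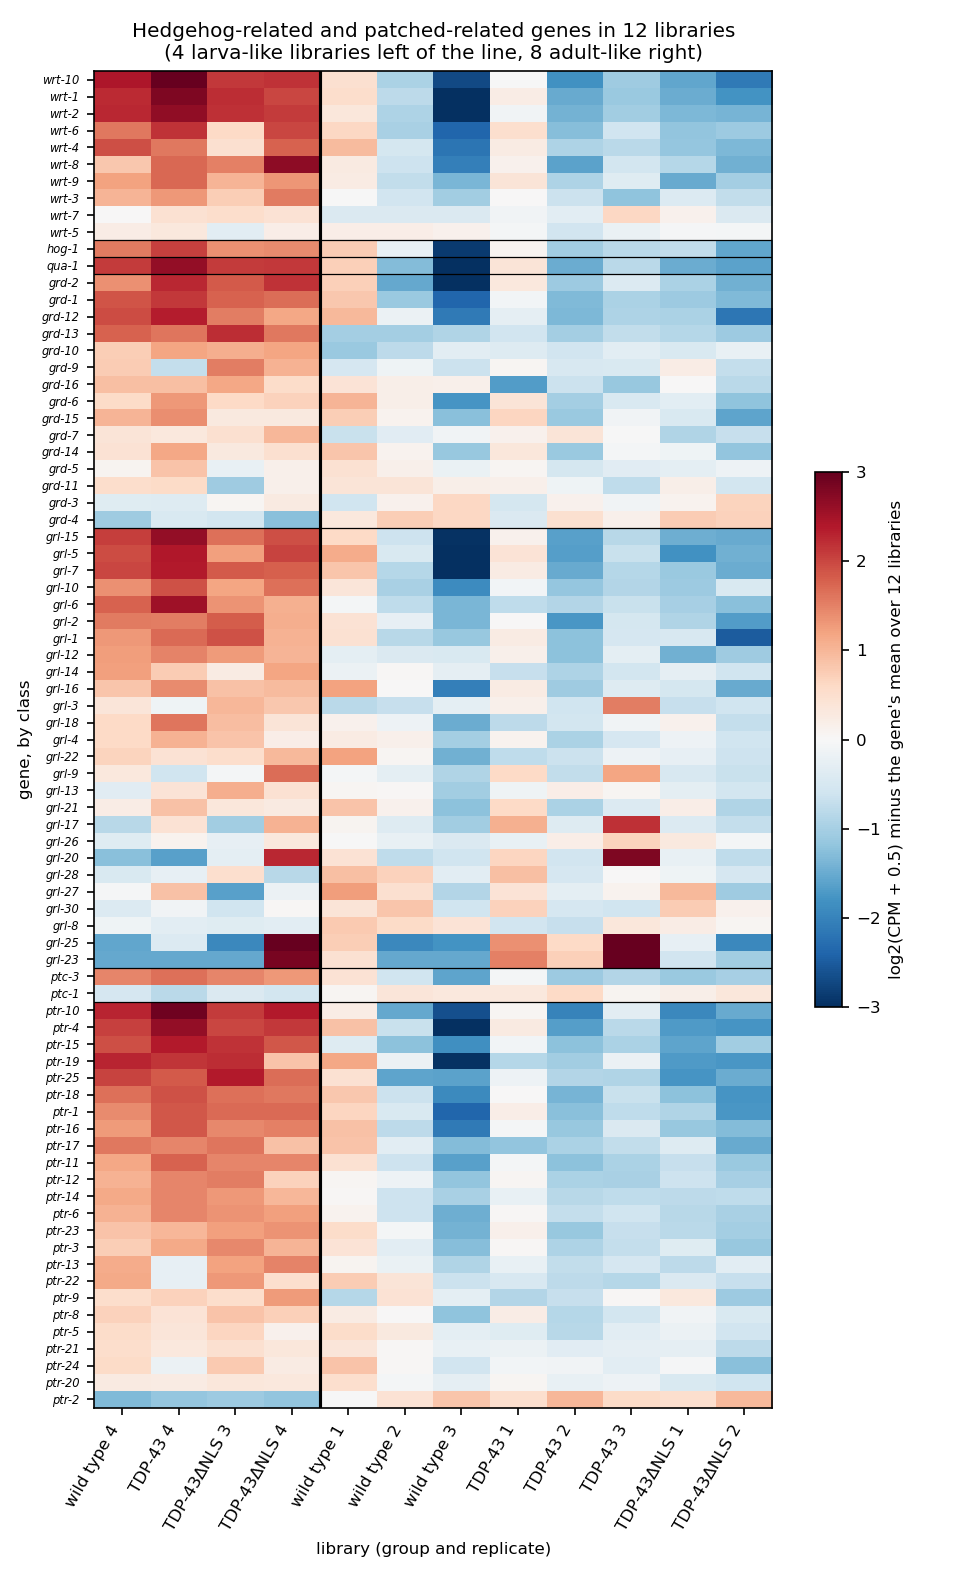
Level of each of the 79 genes (vertical, grouped by class) in each of the 12 libraries (horizontal, larva-like libraries left of the line). Colour is log2(CPM + 0.5) less the mean of that gene, cut at 3 log2 units either way. In 41 genes all 4 libraries on the left were higher than all 8 on the right, and in 3 genes they were all lower.

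Some of the secreted proteins carry the hog domain, the part that in Hedgehog cuts the protein and links it to sterol, and the quahog protein is among them. The gene qua-1 (chromosome II, 8198803 to 8204004), which is needed for molting, had 212 CPM in wild type 4, 306 in TDP-43 4, 212 in TDP-43ΔNLS 3 and 214 in TDP-43ΔNLS 4. In the 8 adult-like libraries it ran from 4.34 to 81.4 CPM with a median of 18.4, and the log2 ratio of medians was 3.50. The single hog gene, hog-1, had 17.1, 24.1, 14.8 and 15.4 CPM in the same 4 libraries and 0.314 to 9.57 CPM (median 2.97) in the others. Neither gene's ranges overlapped. Exons of hog-1 lie over exons of genes on the other strand, so its reads may be shared with them.

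Of the 10 warthog genes, 6 were higher in every larva-like library than in any adult-like one, none was lower, and the class median log2 ratio was 2.45. The warthogs wrt-1 (chromosome II, 7530996 to 7533246, plus strand) and wrt-10 (7533262 to 7534563, minus strand) lie end to end, with 15 bases between them. The level of wrt-10 was 237, 367, 192 and 199 CPM in wild type 4, TDP-43 4, TDP-43ΔNLS 3 and TDP-43ΔNLS 4, and 6.28 to 61.8 CPM (median 17.7) in the adult-like libraries. Its neighbour wrt-1 was at 105, 154, 102 and 88.9 CPM and at 1.73 to 31.4 CPM (median 8.57). For both, the TDP-43 library was the highest of the 4. The seam-cell gene wrt-2 followed, with 70.4 to 104 CPM against 1.15 to 20.4 CPM.

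Other warthogs were less cleanly divided. The level of wrt-6 was 107, 159, 54.0 and 143 CPM in the larva-like libraries and 6.38 to 54.5 CPM in the adult-like ones, so that TDP-43ΔNLS 3 lay just below wild type 1. The same library was the lowest of the 4 for wrt-4, with 33.2 CPM against 71.6 to 91.8 CPM in the other 3. The level of wrt-5 hardly differed between the sets, at 11.8 to 18.5 and 9.77 to 17.1 CPM. Of the class, wrt-7 was the least abundant, at no more than 0.547 CPM in any library.

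The groundhog genes code for secreted proteins with a ground domain. All 4 larva-like libraries were higher for 6 of the 15 genes kept and lower for 1, and 8 overlapped (class median 1.04). These shares were 40% and 6.67%, compared with 22.3% and 24.6% of all genes tested. The largest log2 ratios were those of grd-2 (3.03), grd-1 (2.93) and grd-12 (2.71). The level of grd-1 was 46.6, 54.6, 42.4 and 39.7 CPM in wild type 4, TDP-43 4, TDP-43ΔNLS 3 and TDP-43ΔNLS 4 and 1.94 to 21.8 CPM (median 5.41) in the adult-like libraries.

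A cluster of 3 groundhog genes on the plus strand of chromosome IV (3438312 to 3441841) had different patterns although only 147 and 601 bases separate neighbours. The first, grd-13, was at 135, 120, 185 and 119 CPM in the larva-like libraries and at 18.2 to 26.1 CPM in the adult-like ones. The third, grd-10, whose promoter is used to mark seam cells, was at 94.2, 128, 120 and 128 CPM and at 25.9 to 48.3 CPM. The middle gene, grd-3, was at 121, 119, 164 and 188 CPM and at 103 to 249 CPM, with the highest values in adult-like libraries (249 in TDP-43ΔNLS 2 and 242 in wild type 3). Thus both outer genes were divided by library set and the middle one was not.

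A second pair lies 184 bases apart on chromosome X (8500021 to 8502288), and there too the members differed. The level of grd-14 was 152, 253, 140 and 158 CPM in the larva-like libraries and 49.7 to 201 CPM in the others. The neighbour grd-4 was low throughout, at 0.215, 0.589, 0.520 and 0.122 CPM against 0.614 to 2.04 CPM (median 1.68), and was 1 of the 3 members with every larva-like library lower. Its ranges were kept apart only by 14 counts in TDP-43 4 against 15 in TDP-43 1. The abundant grd-5 overlapped, at 150 to 313 and 120 to 240 CPM.

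**Figure D2:**
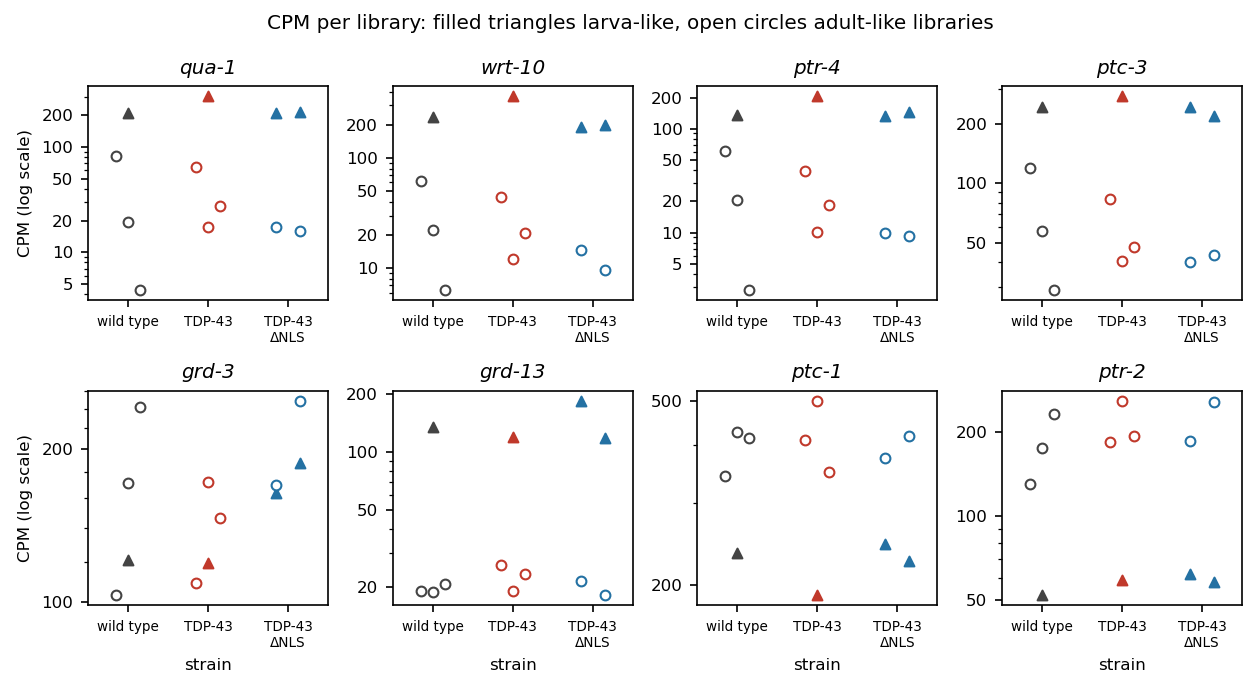
CPM of 8 members (1 panel each, log scale) in every library, by strain; filled triangles are the 4 larva-like libraries and open circles the 8 adult-like ones. The triangles lie above all circles for qua-1, wrt-10, ptr-4, ptc-3 and grd-13, below all circles for ptc-1 and ptr-2, and among them for grd-3.

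The ground-like genes, which code for secreted proteins related to the groundhogs, were the most numerous class. Of the 26 kept, 10 were higher in every larva-like library, none was lower and 16 overlapped (class median 1.04). The largest ratios were those of grl-15, grl-5, grl-7 and grl-10, at 3.11, 3.01, 2.91 and 2.45. The level of grl-7 was 224, 288, 200 and 194 CPM in wild type 4, TDP-43 4, TDP-43ΔNLS 3 and TDP-43ΔNLS 4 and 5.13 to 98.1 CPM (median 27.8) in the adult-like libraries. For grl-15 the corresponding values were 103, 152, 77.3 and 93.5 CPM and 2.67 to 36.5 CPM (median 11). In each of these genes wild type 1 was the highest adult-like library.

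Over all 12 libraries grl-16 had the most counts of any member, 16.9% of those of the 79 genes. It had 787, 1170, 812 and 853 CPM in the larva-like libraries, and in the adult-like ones wild type 3 was lowest with 106 CPM and wild type 1 highest with 1020 CPM (median 322). In the adult-like libraries ptc-1 had the higher median, 413 CPM. The ranges of grl-16 overlapped through wild type 1 alone. Of the ground-like genes known from particular cells, grl-2, whose promoter marks the excretory duct and pore, had 4.26 to 7.37 against 0.163 to 2.52 CPM. The socket-glia gene grl-18 had 1.54 to 4.21 against 0.0523 to 1.21 CPM. The most negative ratios, -1.56 for grl-23, -1.12 for grl-25, -0.59 for grl-8 and -0.51 for grl-30, belonged to genes of low level whose ranges overlapped. The level of grl-21, which acts with nhr-25 and ptr-24 in lipid metabolism, overlapped, at 38.2 to 60.7 and 13.7 to 59.3 CPM.

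The receptors were divided in both directions. The gene ptc-3, a Patched homolog that is essential in the epidermis, had 243, 277, 244 and 218 CPM in wild type 4, TDP-43 4, TDP-43ΔNLS 3 and TDP-43ΔNLS 4, against 28.8 to 119 CPM (median 45.7) in the adult-like libraries. The other Patched homolog, ptc-1, which is needed for cytokinesis in the germ line, went the other way, with 234, 190, 245 and 225 CPM against 343 to 500 CPM (median 413). Their log2 ratios were 2.40 and -0.85. The sum of both was 442 to 488 CPM in the larva-like and 398 to 541 CPM in the adult-like libraries, so the class total overlapped although each gene's ranges did not.

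The 24 patched-related genes had the largest share of members divided by library set among the classes of 10 or more genes: 16 were higher in every larva-like library, 1 was lower and 7 overlapped (median 1.97). The largest log2 ratio of all members was that of ptr-10, whose promoter marks glia, at 3.87. It was at 32.1, 49.7, 28.0 and 34.4 CPM in the larva-like libraries and at 0.576 to 7.37 CPM (median 1.82) in the others, and its exons overlap those of a gene on the other strand. The level of ptr-4, which shapes the apical extracellular matrix, was 137, 208, 134 and 144 CPM against 2.77 to 61.1 CPM (median 14.3).

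The level of ptr-18, which acts in holding progenitor cells quiescent in starved hatchlings, was 116, 139, 116 and 111 CPM against 9.31 to 64.8 CPM. Ratios of 3.19, 3.12 and 3.10 were found for ptr-15, ptr-19 and ptr-25, of which ptr-19 overlapped through TDP-43ΔNLS 4 (10.3 CPM) and wild type 1 (12.7 CPM). The osmoregulation gene ptr-23 had 115 to 163 against 23.3 to 93.2 CPM. Only ptr-2 had every larva-like library lower, at 51.8, 58.6, 61.7 and 57.8 CPM against 130 to 260 CPM (median 190) and a log2 ratio of -1.70. Each of the other 23 patched-related genes had a ratio above 0. The ranges of ptr-20 and ptr-24 overlapped, at 20.6 to 21.8 and 13.6 to 26.9 CPM in the larva-like libraries.

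**Figure D3:**
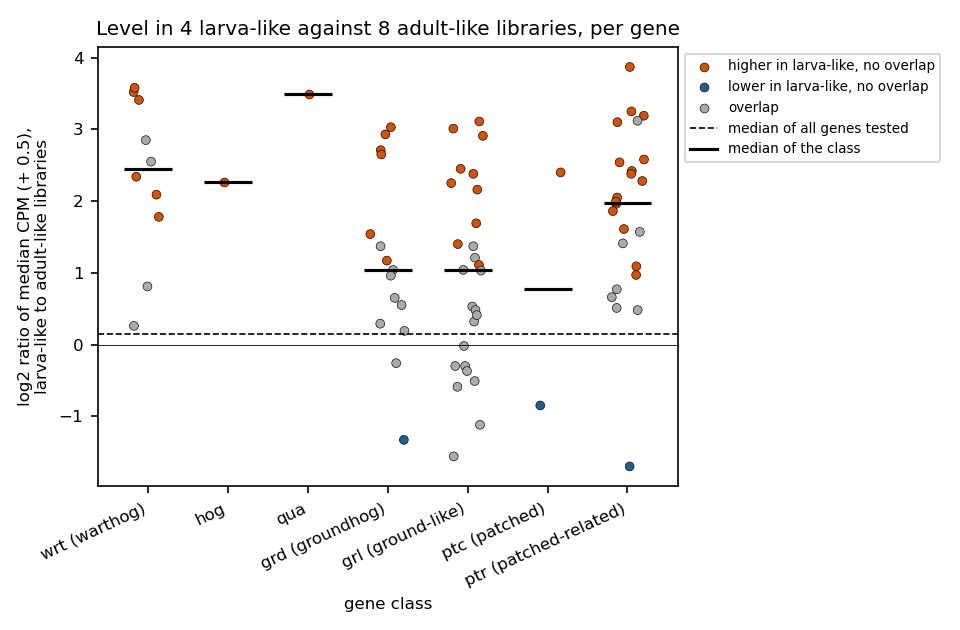
Log2 ratio of the larva-like to the adult-like median (with 0.5 CPM added) for each of the 79 genes, by class. Orange (higher in larva-like) and blue (lower) points are genes whose library ranges do not overlap, and grey points are genes whose ranges overlap. Among the orange and blue points ptr-10 is highest at 3.87 and ptr-2 lowest at -1.70.

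Each strain held both kinds of library, so the same division was read within strains. Larva-like libraries lay above every adult-like library of their own strain for 57 of the 79 members (wild type), 60 members (TDP-43) and 63 members (TDP-43ΔNLS). All genes tested had 41.5%, 45.2% and 42.5% in these positions. In all 3 strains at once this held for 49 members, against 30.0% of the genes tested. The opposite held in all 3 strains for 3 members, against 30.1%. These within-strain comparisons rest on 1 larva-like library each for wild type and TDP-43, and on 2 for TDP-43ΔNLS.

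In 1 member, grd-9, the larva-like libraries lay above all adult-like libraries of their strain in some strains and below them in another. It had 1.26 CPM in wild type 4 against 0.157 to 0.448 in the other wild type libraries, and 2.48 and 1.62 in TDP-43ΔNLS 3 and 4 against 0.705 and 0.123. In TDP-43 it had 0.126 CPM in the larva-like library and 0.244 to 0.573 in the others. This gene is low throughout, and its exons overlap those of srd-16 on the other strand. A gene with a related pattern was ptr-13, with 63.3 CPM in wild type 4, 68.1 and 83.3 in TDP-43ΔNLS 3 and 4, but 24.6 in TDP-43 4, which lay within the 17.3 to 25 CPM of the other TDP-43 libraries.

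The adult-like libraries differed among themselves in the same genes. Wild type 1 was the highest of the 8 for 53 of the 77 members tested (68.8%), compared with 30.2% of all genes tested. Wild type 3 was the lowest for 41 members (53.2%), compared with 19%. The spread is seen in qua-1, which had 81.4 CPM in the first of these libraries and 4.34 CPM in the second, and in ptr-4, which had 61.1 and 2.77 CPM. Several genes did not spread in this way, such as grd-13 with 19.2 and 20.8 CPM in the same libraries. Wild type 1 had the lowest oocyte and eggshell mean of the adult-like libraries, 8.06 log2 CPM, and the highest level of mlt-10, a gene of the molting cycle, at 63.1 CPM. Wild type 3 had 9.31 log2 CPM and 7.95 CPM. The part of these differences in the levels of the members was not tested.

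Among the 4 larva-like libraries, TDP-43 4 was the highest for 39 of the 77 members (50.6%), compared with 35.9% of all genes. It also had the highest level of mlt-10, 180 CPM, against 65.9 to 107 CPM in the other 3. Whether this has a part in the members' levels was not tested.

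A further set of ground-like genes followed neither division and was picked out after their values were seen. For grl-9, grl-17, grl-20, grl-23 and grl-25 the 3 highest libraries were TDP-43 3, TDP-43ΔNLS 4 and TDP-43 1, which mix strains and library sets. The level of grl-25 was 30.3 CPM in TDP-43 3, 15.4 in TDP-43ΔNLS 4 and 4.42 in TDP-43 1, and 0 to 2.65 CPM in the other 9 libraries. The level of grl-23 was 18.5, 9.90 and 3.64 CPM in the same order. It was listed at 0 counts in wild type 2, 3 and 4, TDP-43 4 and TDP-43ΔNLS 3. In these 5 libraries a count of 0 allows a level of up to 0.108 to 0.157 CPM, for counting error only.

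In the same order, grl-20 had 10.2, 6.86 and 1.92 CPM and grl-17 had 4.19, 1.62 and 1.64 CPM. These 3 top libraries were shared by 5 of 77 members (6.49%) and by 29 of the 16637 genes tested (0.174%). The 3 libraries were taken from grl-25, itself a member, so these shares are a description and support nothing further. Of those 29, 5 were the members, 12 were collagen (col) genes, 1 was a cuticlin (cut) gene and 11 were other genes. The share of collagen genes among all genes tested was not counted, so no excess is read from the 12. The collagen gene col-40 had 30.5, 13.8 and 4.09 CPM, col-84 had 20.3, 11.4 and 3.56 CPM, and the cuticlin gene cut-1 had 11.7, 6.05 and 2.74 CPM. The exons of all 5 members overlap those of genes on the other strand. For grl-25 these partners were listed at 0 counts in every library, and for grl-23 the partner had 2 counts in wild type 4 and 0 elsewhere. The other 3 have partners with counts: C56A3.8 over grl-17 had 1.56 to 28.2 CPM, glb-7 over grl-20 had 1.88 to 6.97 CPM and ZC487.1 over grl-9 had 3.41 to 9.99 CPM, so the levels of these 3 may include reads of the partner.

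**Figure D4:**
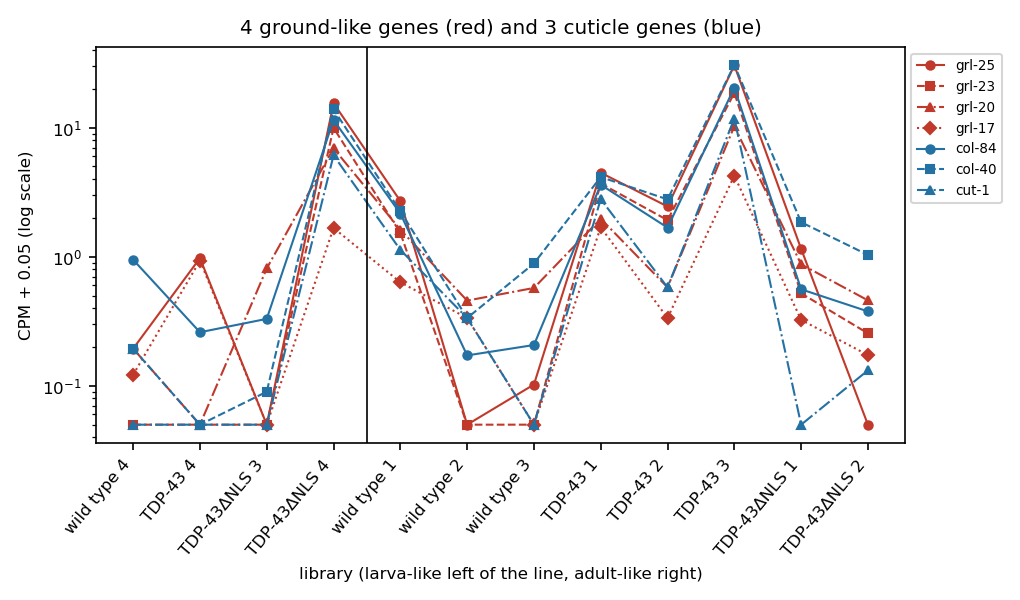
CPM plus 0.05 (log scale) of 4 ground-like genes (red) and 3 cuticle genes (blue) in the 12 libraries, larva-like left of the line. All 7 genes were highest in TDP-43 3, and all but grl-17 were next highest in TDP-43ΔNLS 4; grl-25 had 30.3 CPM in the first and 15.4 CPM in the second.

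Other genes of hedgehog-like and sterol-sensing systems, were taken from a separate list. Of 12 tested, 8 were higher in every larva-like library and none was lower, with a median log2 ratio of 1.80 (22.3% and 24.6% of all genes). The Dispatched-like gene che-14 had 27.4 to 37.7 CPM in the larva-like and 1.88 to 10.9 CPM in the adult-like libraries. The megalin homolog lrp-1, which is needed for molting, had 424 to 579 against 91.0 to 256 CPM. The acyltransferase homolog hhat-1 had 33.0 to 58.0 against 2.83 to 22.2 CPM, and daf-6, a patched-related gene of the amphid glia, had 17.7 to 21.7 against 2.29 to 8.90 CPM. The Gli homolog tra-1, known for its place in sex determination, overlapped, at 82.7 to 117 and 67.6 to 94.9 CPM. The Niemann-Pick homolog ncr-2 had 0.641 to 5.76 against 5.41 to 9.17 CPM, which also overlapped.

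Regulators of the epidermal molting cycle were higher in every larva-like library for 10 of 12 genes and lower for none, with a median log2 ratio of 2.10. For this list and those that follow, the shares over all genes tested were 22.3% higher and 24.6% lower. Among them, lin-42 had 390 to 467 against 20.3 to 169 CPM, myrf-1 had 334 to 421 against 36.9 to 93.5 CPM and blmp-1 had 81.7 to 100 against 8.53 to 29.8 CPM. The receptor gene nhr-23 overlapped, at 45.1 to 54.2 and 29.2 to 57.3 CPM. Epidermis and seam genes were higher for 5 of 8 (median 0.98), with list means of 5.69 to 5.94 against 4.03 to 4.95 log2 CPM. The ranges of egl-18, lin-26 and col-12 overlapped, with log2 ratios of -0.58, -0.16 and 0.1. Glia genes were higher for 5 of 6, with means of 4.73 to 5.06 against 3.31 to 4.38 log2 CPM. These lists share genes: daf-6 is in those of glia and of hedgehog-like systems, and elt-3 is in those of molting regulators and of epidermis and seam, so their counts are not separate.

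Between strains, no member passed the threshold of 0.05 on the adjusted p. In edgeR's quasi-likelihood test over all 12 libraries with Benjamini-Hochberg adjustment, 0 of the 77 members tested were called in TDP-43 against wild type, TDP-43ΔNLS against wild type or TDP-43ΔNLS against TDP-43. Over all 16637 genes the calls were 1 (0.00601%), 0 and 0. At an unadjusted p under 0.05 there were 1, 0 and 1 members (1.30%, 0% and 1.30%), against 1.83%, 1.45% and 2.57% of all genes. In other fits they were 5, 0 and 2 of 77 members with library set as a term (6.49%, 0% and 2.6%, against 6.28%, 5.2% and 4.41% of all genes). Without the larva-like libraries they were 9, 0 and 5 of 78 (11.5%, 0% and 6.41%, against 6.26%, 4.46% and 3% of all genes). The DESeq2 Wald test also called 0 members in each comparison. Each 2 of these comparisons share the libraries of 1 strain, so their values are not independent.

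The lowest p among members in TDP-43 against wild type was that of ptr-22. Its level was 14.3, 10.9, 5.02 and 18.6 CPM in the wild type libraries 1 to 4. The TDP-43 libraries had 5.77, 4.56, 4.30 and 6.86 CPM, and the TDP-43ΔNLS libraries 5.92, 4.91, 20.9 and 11.8 CPM. Group means were 12.2 ± 5.72, 5.37 ± 1.18 and 10.9 ± 7.34 CPM (SD, n = 4), and the ranges overlapped. The edgeR log2 fold change in TDP-43 against wild type was -1.18 ± 0.51 (SE, edgeR adjusted p = 0.9999). In TDP-43ΔNLS against TDP-43 it was 1.02 ± 0.51 (adjusted p = 0.9984).

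The next members were grl-17 at 2.87 ± 1.37, grl-8 at -0.82 ± 0.40, grl-23 at 4.01 ± 2.2 and grl-25 at 3.74 ± 2.08 (log2 fold change ± SE, edgeR adjusted p = 0.9999 for each). The 3 positive values moved with single libraries. For grl-17, grl-23 and grl-25 they were 1.96 ± 1.43, 2.30 ± 2.17 and 1.86 ± 2.01 without TDP-43 replicate 3, and 3.81 ± 1.64, 10.27 ± 3.72 and 7.08 ± 2.65 without wild type replicate 1. In the last fit the other wild type libraries hold 0 counts of grl-23, so its value sets no size. In TDP-43ΔNLS against TDP-43 the lowest p was that of grd-9, at 2.02 ± 0.92 (SE, edgeR adjusted p = 0.9984), from means of 1.23 ± 1.04 and 0.3 ± 0.191 CPM (SD, n = 4). Next came ptr-13, at 1.13 ± 0.55, from means of 47.8 ± 32.9 and 21.9 ± 3.64 CPM. Without the larva-like libraries the values were 0.23 ± 1.01 for grd-9, -0.09 ± 0.33 for ptr-13 and 0.15 ± 0.41 for ptr-22, and with library set as a term 1.07 ± 0.88, 0.47 ± 0.34 and 0.57 ± 0.37. The log2 fold changes of grd-3 and grl-17 were 0.50 ± 0.28 and -1.78 ± 1.30, and that of grl-17 was -3.36 ± 1.34 without the larva-like libraries.

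In TDP-43ΔNLS against wild type the lowest p was that of grl-8, at -0.61 ± 0.40 (SE, edgeR adjusted p = 0.9999). It was followed by grd-10 at 0.77 ± 0.56, grd-9 at 1.22 ± 0.89, wrt-8 at 1.55 ± 1.14 and grl-23 at 2.83 ± 2.11, none of which passed the test. Without TDP-43ΔNLS replicate 4 the value for grl-23 was -0.70. The groups did not overlap for 1 member, grd-11, in this comparison and for 0 members in the other 2, compared with 1.32%, 1.65% and 1.77% of all genes. The gene had 0.854, 0.855, 0.680 and 1.01 CPM in wild type and 0.666, 0.205, 0 and 0.649 CPM in TDP-43ΔNLS. Its exons overlap those of a gene on the other strand, and its level was low in every library. The Patched homologs ptc-1 and ptc-3 were at 0.03 ± 0.32 and 0.00 ± 0.83 in TDP-43 against wild type and at -0.17 ± 0.32 and 0.28 ± 0.83 in TDP-43ΔNLS against wild type.

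Over the 77 members, the log2 fold change was positive for 46, 50 and 50 in the 3 comparisons, with medians of 0.08, 0.28 and 0.16 (all genes 0.02, -0.01 and 0.00). TDP-43ΔNLS holds 2 larva-like libraries and the other strains 1 each. With library set as a term in the edgeR fit, the medians were -0.09, -0.43 and -0.38 (all genes 0.01, 0.01 and -0.01), with 28, 19 and 19 members positive. Again 0 members were called, and the lowest adjusted p was 0.583, for ptr-22. Without the larva-like libraries, when 78 members were tested, the medians were -0.19, -0.67 and -0.50. Wild type 1 was the highest adult-like library for 53 of the 77 members, and its part in these medians was not tested.

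**Figure D5:**
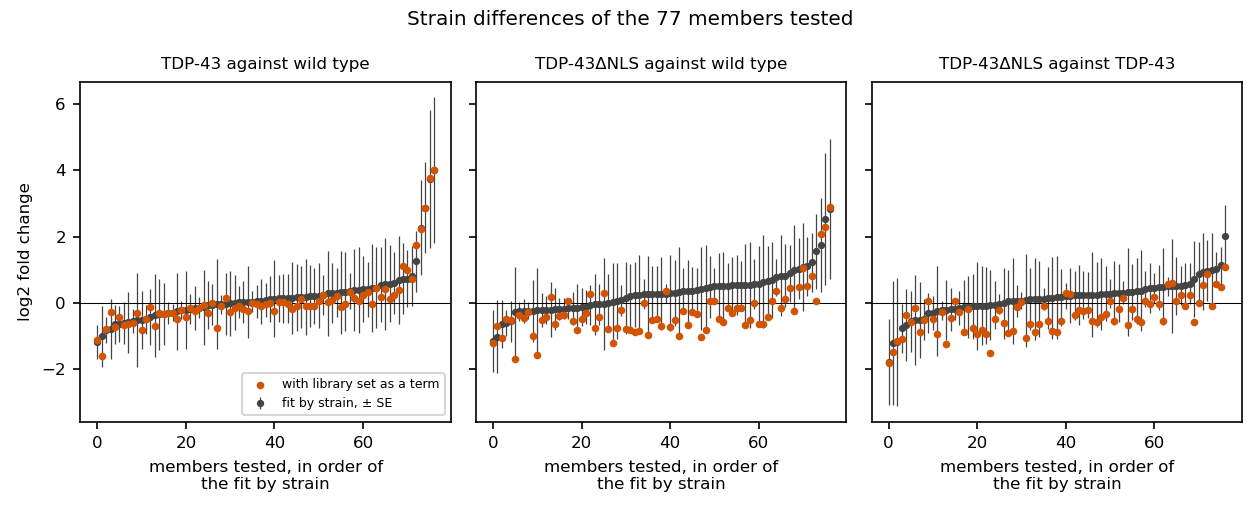
Log2 fold change (vertical) of the 77 tested members in order of their value (horizontal) in the 3 comparisons between strains, from edgeR. Grey points with bars of ± 1 SE are from the fit by strain (medians 0.08, 0.28 and 0.16), and orange points from the fit with library set as a further term (medians -0.09, -0.43 and -0.38).

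Levels of different genes were set against each other as RPKM, which is CPM per kilobase of exon, and the order within a class depended on the library set. Among groundhogs grd-5 was first in both, with a median of 358 RPKM in the larva-like and 294 RPKM in the adult-like libraries. The second was grd-14 in the larva-like libraries (259 RPKM) and grd-3 in the adult-like ones (247 RPKM). Among ground-like genes grl-16 (495 and 192 RPKM) and grl-4 (208 and 101 RPKM) were first and second in both. For warthogs wrt-10 led the larva-like libraries at 193 RPKM, whereas in the adult-like ones wrt-5 (17.8 RPKM) stood beside wrt-10 (15.7 RPKM).

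Both receptor classes changed order. The level of ptc-3 was 54.6 and that of ptc-1 45.1 RPKM in the larva-like libraries, against 10.3 and 81.4 RPKM in the adult-like ones. The patched-related gene ptr-4 was first in the larva-like libraries at 45 RPKM and ptr-2 the sixth at 20 RPKM, while in the adult-like ones ptr-2 was first at 65.4 RPKM and ptr-4 had 4.59 RPKM. Over all 12 libraries, 7 genes (grl-16, ptc-1, grd-5, grd-3, ptr-2, grd-14 and ptc-3) held 49.5% of the counts of the 79.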

How the data were processed

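The deposited values are whole-number counts of reads for each gene in the 12 whole-worm libraries, in 1 table. The genome build was WBcel235, and the tools were STAR, featureCounts 2.20.0 and R 4.4.2, per the submitters' processing notes. Not given in the sources used here are the annotation release, the strand setting and the handling of multi-mapping reads. Exons of 25 of the 79 members overlap those of a gene on the other strand, and without strand their reads could not be told apart. The 25 include grd-12, grl-2, grl-8, grl-10, grl-15, ptr-15 and wrt-2, whose values are given above without that limit. Exons of grd-12 also overlap those of xbx-1 on its own strand.

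Names and coordinates came from an Ensembl annotation of WBcel235. In R 4.3.3, libraries were scaled by TMM, genes were filtered with filterByExpr (16637 kept, with 77 of the 79 members; grl-26 and wrt-7 were not tested), and strains were compared in edgeR 4.0.16 by its quasi-likelihood test over all 12 libraries, with Benjamini-Hochberg adjustment at 0.05 over all genes tested. The quasi-likelihood test gives no SE. The SE printed with its log2 fold changes is their absolute value divided by the square root of the test's F statistic. DESeq2 1.42.0 was an alternative. CPM use TMM-adjusted library sizes, and RPKM divides them by exon length in kilobases. Ratios of medians carry a pseudocount of 0.5 CPM. Libraries under a mean of 6 log2 CPM over the oocyte and eggshell list were called larva-like.

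The members, the lists, the division of the libraries and the tests were chosen with earlier results of these data known. Named genes were up to 4 per direction and class with the largest ratio, the patched, hog and quahog genes, the highest 2 per class in mean RPKM and the 5 lowest p per comparison. Others were chosen after their values were seen. Counts were simulated with noise drawn for each gene separately, and changed genes were taken only from those of at least 5 CPM on average. With 16290 genes tested for TDP-43 against wild type, 23% of genes changed by 4-fold were recovered and 2% of those changed by 2-fold. There were 0 false calls. For TDP-43ΔNLS against wild type 13% and 0% were recovered, so most changes of either size went uncalled. These values do not cover members of lower level, or a spread shared by many genes such as that between the library sets.

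Same-numbered libraries of TDP-43 and wild type deviated together from their strain means, with correlations of 0.229, 0.508, 0.501 and 0.825 across genes. Replicate 4 is the only larva-like library of both strains, and differently numbered libraries were not compared. These values therefore cannot show whether the numbers pair libraries.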

Additional observations from a re-analysis of the deposited data

Results flagged for a closer look

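Within the 4 libraries of a strain, a value was picked out when its gap to the nearest other library was a large part of the strain's range, by a test that picks out about 1 in 20 groups by chance. The 22 members picked out in TDP-43 4 and the 4 in wild type 4 were all in the only larva-like library of those strains. The other libraries had 2 members (wild type 1), 1 (TDP-43 3), 1 (TDP-43ΔNLS 2) and 5 (TDP-43ΔNLS 4). By strain this was 7.79% (wild type), 29.9% (TDP-43) and 7.79% (TDP-43ΔNLS) of the 77 members tested, compared with 7.25%, 15.4% and 2.68% of all genes tested.

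Among the members described above, grd-10 stood apart in TDP-43 4 at 128 CPM. In wild type 1, grl-23 (1.48 CPM) and grl-25 (2.65 CPM) stood above the other wild type libraries. The gene grl-25 stood apart again in TDP-43 3 at 30.3 CPM. In TDP-43ΔNLS 4, grl-17 (1.62 CPM), grl-23 (9.90 CPM) and grl-25 (15.4 CPM) did so. The gene grd-9 differed in direction between strains, with a log2 ratio of the larva-like to the adult-like mean of -0.45 in TDP-43, 1.18 in wild type and 1.48 in TDP-43ΔNLS, and this difference was not tested.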

How the results depend on the processing

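No member passed the threshold between strains under any of the 21 other settings of each comparison, and the lowest adjusted p of a member over them was 0.522 (ptr-22), 0.851 (ptr-20) and 0.674 (grd-16) in TDP-43 against wild type, TDP-43ΔNLS against wild type and TDP-43ΔNLS against TDP-43. Calls over all genes moved from 1, 0 and 0 to 21, 16 and 8 with the DESeq2 Wald test and to 16, 9 and 1 with library set as a term. Without the larva-like libraries they were 9 and 6 in the first and second comparisons. In TDP-43 against wild type the replicate block gave 0 calls over all genes, and 22 when only the groups compared were fitted, a setting added after the data were seen. Leaving out each library in turn gave 0 to 1. The block changed no call among the members. For replicates 1 to 4, same-numbered libraries correlated at 0.304, 0.663, -0.629 and 0.715 in TDP-43ΔNLS against wild type. In TDP-43ΔNLS against TDP-43 they correlated at 0.347, 0.754, -0.562 and 0.676. Replicate 3 is larva-like in TDP-43ΔNLS only, so these values cannot show whether the numbers pair libraries.

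Without the larva-like libraries, wrt-8 (-0.80) and grl-23 (-0.50) in TDP-43ΔNLS against wild type and ptr-13 (-0.09) in TDP-43ΔNLS against TDP-43 changed sign. Without TDP-43ΔNLS replicate 4, grl-23 was at -0.70, and over all libraries left out it ran from -0.70 to 8.96. The cause was not tested.

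Scaling to the epidermis and seam list moved the members higher in every larva-like library from 41 to 20 and the members lower from 3 to 8. DESeq2 size factors gave 40 and 3. Leaving out each library gave 41 to 49 and 3. Counts of under 3 reads per library, as for grl-23 and grl-25 in several libraries, limit what can be said of the lowest members.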
